A study of Rattus norvegicus with 6 samples.

Results

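Follistatin, activin and TGF-beta signalling was followed through 10 genes, Fst, Inhba, Acvr1b, Tgfb1, Tgfbr1, Tgfbr2, Smad3, Smad7, Skil and Tgif1, in primary rat microglia stimulated with LPS in the presence or absence of siponimod. The members were picked by gene name from the 23139 genes of the count tables, and all 10 were found. The choice was made with results of this same comparison known, among them the rise of Fst. The values of the 10 genes, and whether each passed a threshold, are therefore a description and no test is drawn from them.

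Cortical cells of Wistar rats at postnatal day 1 were kept as mixed cultures in serum-containing medium, from which microglia were shaken off and purified on CD11b/c beads. All 6 cultures received lipopolysaccharide (LPS, a bacterial cell wall component that activates microglia) at 100 ng/mL. In 3 of them, named LPS/DMSO here, DMSO was added as the solvent, and in the other 3, named LPS/siponimod, 50 µM siponimod, a modulator of the sphingosine-1-phosphate receptors S1PR1 and S1PR5. No library of unstimulated cells or of siponimod alone was analysed here, and the time from stimulation to lysis is not stated for the sequenced cells. The libraries were polyA-selected and held 39484979, 38301365 and 38080379 counts in LPS/DMSO replicates 1, 2 and 3 and, in the same order, 46643859, 43336006 and 38857441 with LPS/siponimod.

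Activins and TGF-beta are secreted dimers of the same superfamily. They bring a type II and a type I receptor kinase together, and the type I receptor phosphorylates SMAD2 and SMAD3, which enter the nucleus with SMAD4. Follistatin binds activin outside the cell and blocks its access to the receptors, while SMAD7, SKIL and TGIF1 restrain the pathway inside the cell. In the brain, microglia make TGF-beta1 and depend on it for much of their resting gene expression, and activin A is a known product of LPS-stimulated macrophages.

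The libraries with the number 3 had the highest marker sums of their group for the oligodendrocyte lineage and for neurons, as the plot of marker sums shows. For astrocytes this held with LPS/siponimod only, and their endothelial sums were the lowest of each group. Olig1, a transcription factor of the oligodendrocyte lineage, had 1, 5 and 515 counts in LPS/DMSO replicates 1, 2 and 3 and 2, 3 and 17 in LPS/siponimod replicates 1, 2 and 3. For Pdgfra, a receptor of oligodendrocyte precursors, the counts were 5, 4 and 284 with LPS/DMSO and 1, 4 and 81 with LPS/siponimod. Both genes were thus near the floor in replicates 1 and 2 and highest in LPS/DMSO replicate 3. Map2, a neuronal cytoskeletal gene, had 0, 3 and 162 counts with LPS/DMSO and 1, 1 and 115 with LPS/siponimod, and was high in both libraries numbered 3. The 7 markers of the oligodendrocyte lineage summed to 5.34, 5.37 and 36.0 CPM (counts scaled by the normalized library size) with LPS/DMSO and 11.4, 10.3 and 22.6 CPM with LPS/siponimod. Mbp was the highest of them in all libraries but LPS/DMSO replicate 3, where it was at 2.26 CPM, below Olig1 (13.85 CPM), Pdgfra (7.64 CPM) and Olig2 (6.45 CPM). The mean of Mbp rose from 3.49 CPM with LPS/DMSO to 11.6 CPM with LPS/siponimod (adjusted p = 0.0172, edgeR). The 6 neuronal markers summed to 1.67, 1.04 and 11.3 CPM with LPS/DMSO and 6.39, 9.18 and 16.9 CPM with LPS/siponimod, Tubb3 being the highest in each library. Snap25, a gene of synaptic vesicle fusion, had 0, 1 and 1 counts with LPS/DMSO and 94, 153 and 81 with LPS/siponimod, at least 31.0-fold more against the floor of 3 counts per library (adjusted p = 0.00539, edgeR). The 6 astrocyte markers summed to 42.4, 20.9 and 19.4 against 27.4, 26.7 and 57.1 CPM, most of it Slc1a3, and Gfap was at 0 to 2 counts except for 88 in LPS/DMSO replicate 3. The 5 endothelial markers summed to 168, 215 and 93.6 CPM with LPS/DMSO and to 39.7, 84.4 and 28.4 CPM with LPS/siponimod, Cdh5 being the highest except in LPS/DMSO replicate 2, where Pecam1 was at 104 and Cdh5 at 97.1 CPM. Flt1, also of this list and named after its value was seen, fell from a mean of 11.5 to 2.76 CPM (adjusted p = 0.00913, edgeR). The other 4 markers of the list did not pass the test. Cdh5, Pecam1 and Vwf had lower means with LPS/siponimod, while the mean of Tek went from 0.94 to 1.80 CPM.

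**Figure D1:**
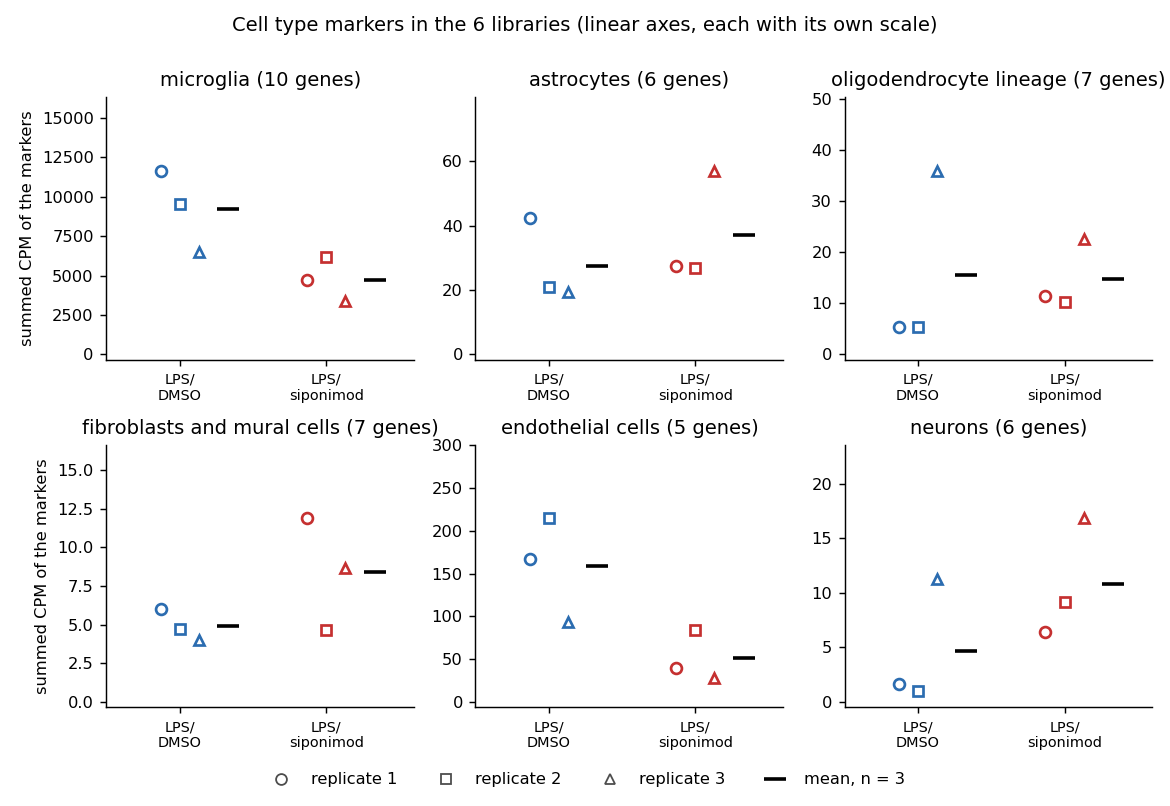
Summed CPM (y axes, linear, each with its own scale) of the marker lists for 6 cell types in each library, with circles, squares and triangles for replicates 1, 2 and 3 and a bar for the mean of 3 libraries. The oligodendrocyte lineage list reached 36.0 CPM in LPS/DMSO replicate 3, and the microglial sum of every LPS/siponimod library lay below that of every LPS/DMSO library.

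Markers of the labelled cell type were abundant in all 6 libraries. The 10 microglial markers summed to 11660, 9546 and 6518 CPM with LPS/DMSO and to 4717, 6164 and 3366 CPM with LPS/siponimod. Csf1r, the receptor for colony-stimulating factor 1, was the highest of them in LPS/DMSO replicates 1 and 2 (3050 and 2339 CPM) and LPS/siponimod replicate 2 (1308 CPM), Itgam in LPS/DMSO replicate 3 (1047 CPM) and Cd68 in LPS/siponimod replicates 1 and 3 (1346 and 830 CPM). The sums did not overlap and were lower with LPS/siponimod. Of these 10 genes Aif1, which encodes the calcium-binding protein Iba1, fell from 877 ± 69.1 to 238 ± 136 CPM (mean ± SD of 3 libraries; adjusted p = 0.0212, edgeR quasi-likelihood test across all genes). Itgam, which encodes CD11b, fell from 991 ± 51.5 to 541 ± 27.4 CPM (adjusted p = 0.0112, edgeR). The other 8 markers did not pass the test. Among them C1qa, C1qb, C1qc, Csf1r and Spi1 had log2 fold changes of -1.75, -1.61, -1.91, -1.38 and -0.49. Tyrobp was at -0.24, while Ptprc (-0.02) and Cd68 (0.002) hardly changed. The lower sum was thus not shared by all 10 genes. In bulk samples fewer cells of a type and less RNA per cell cannot be told apart, and the part of these shifts in the values below was not tested. The share of counts from 13 mitochondrially encoded genes also differed, with 1.54%, 1.39% and 1.41% in LPS/DMSO replicates 1, 2 and 3 and, in the same order, 0.313%, 0.61% and 0.568% with LPS/siponimod.

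Among the 10 genes, 4 were past the thresholds for differentially expressed genes (DEGs) in the direction of a rise with LPS/siponimod (Fst, Inhba, Smad3 and Tgif1) and 1 in the direction of a fall (Acvr1b). A gene had to reach an adjusted p of 0.05 and change 1.5-fold in edgeR's quasi-likelihood test, run across all 11977 genes with enough counts. By the same rule 13.6% of all genes tested were higher and 11.7% lower. All 10 genes passed the filter on low counts, Fst and Inhba only through their level with LPS/siponimod. The CPM values of both groups did not overlap for 7 of the 10 genes, 5 higher and 2 lower with LPS/siponimod, compared with 49.3% of all genes tested (25.3% higher and 24.0% lower). The 10 genes had a median log2 fold change (FC) of 0.74 and all genes tested one of -0.02.

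**Figure D2:**
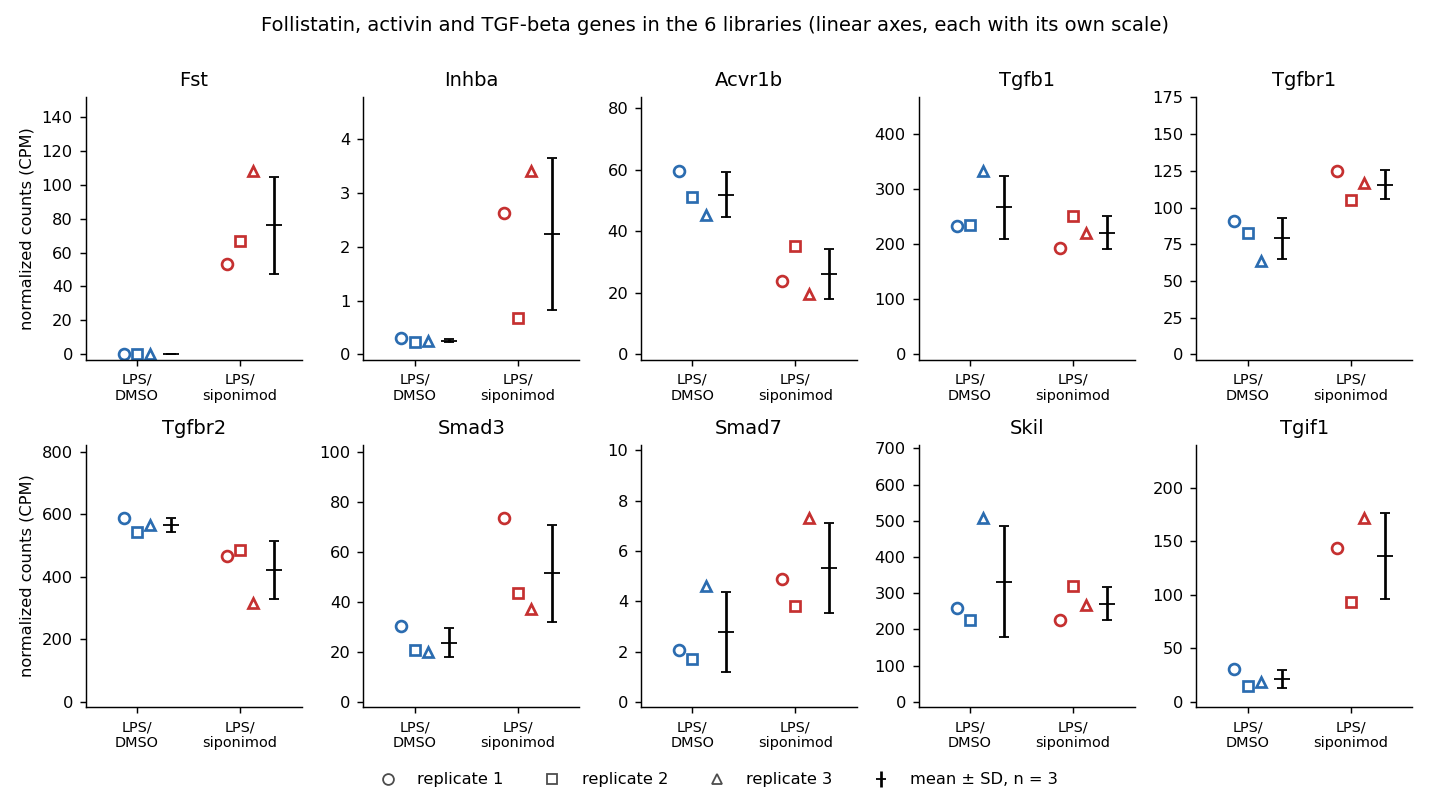
CPM (y axes, linear, each with its own scale) of the 10 genes in the 3 LPS/DMSO and the 3 LPS/siponimod libraries, with circles, squares and triangles for replicates 1, 2 and 3 and bars for the mean ± SD (n = 3). Fst and Tgif1 lay far above LPS/DMSO in every LPS/siponimod library, whereas Tgfb1, Smad7 and Skil overlapped between the conditions.

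Among the extracellular members, Fst, the gene of follistatin, went from almost no reads to a well-detected transcript. It had 1, 2 and 9 counts in LPS/DMSO replicates 1, 2 and 3 and 2479, 2983 and 4441 counts in LPS/siponimod replicates 1, 2 and 3. After normalization this was 0.107 ± 0.118 CPM with LPS/DMSO and 76.1 ± 28.6 CPM with LPS/siponimod (mean ± SD of 3 libraries each). Every LPS/siponimod library was far above every LPS/DMSO library, and the highest value of each group was in its replicate 3. The fitted log2 FC was 9.44, with a standard error (SE) of 0.66. Since 2 of the LPS/DMSO libraries were under the floor of 3 counts, this value depends on the prior count of the fit. The ratio of the summed reads, 12 with LPS/DMSO and 9903 with LPS/siponimod, scaled to library size, was 704 with an exact 95% interval from 403 to 1360. That interval covers counting error only. Fst stayed past the thresholds whichever library was left out, with log2 FCs from 9.02 to 10.81.

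Follistatin is made by many mesenchymal cells, so that markers of fibroblasts and mural cells are given beside it. Their 7 genes summed to 6.04, 4.75 and 3.98 CPM with LPS/DMSO and to 11.9, 4.64 and 8.65 CPM with LPS/siponimod, and the groups overlapped. Lum was at 4 counts or fewer in each library and Rgs5 at 0 in all 6, which allows up to 3 counts, or between 0.0646 and 0.0809 CPM, in a library. Col1a1, a chain of type I collagen, had 113, 115 and 89 counts with LPS/DMSO and 62, 61 and 76 with LPS/siponimod, and was not a DEG (log2 FC -0.89, adjusted p = 0.0526, edgeR). Col1a2, the other chain of that collagen, had 42, 32 and 26 counts with LPS/DMSO and 14, 53 and 70 with LPS/siponimod, so that its groups overlapped, and was not a DEG (log2 FC 0.26, adjusted p = 0.777, edgeR). Like Fst, Col1a2 was lowest in replicate 1 and highest in replicate 3 of the LPS/siponimod libraries. Col1a1 (1.33, 1.37 and 1.85 CPM) and Pdgfrb (0.194, 0.470 and 0.487 CPM) had the same order in replicates 1, 2 and 3. Col3a1 was highest in replicate 2 of that group (0.194, 0.493 and 0.268 CPM). Dcn, which encodes the proteoglycan decorin, a binder of TGF-beta, was the 1 DEG of the list. Its counts were 3, 0 and 4 with LPS/DMSO and 456, 49 and 178 with LPS/siponimod (log2 FC 6.28, SE 1.18, adjusted p = 0.0155, edgeR). As 1 of its LPS/DMSO libraries was at 0, this fold change depends on the prior count. Dcn was above Col1a1 in LPS/siponimod replicates 1 and 3 only, and highest in LPS/siponimod replicate 1, where Fst was lowest.

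Inhba encodes the beta A chain, of which activin A is the homodimer. It was close to silent with LPS/DMSO, at 11, 9 and 9 counts, and had 122, 30 and 140 counts with LPS/siponimod. The LPS/DMSO libraries were alike (0.257 ± 0.0343 CPM), and LPS/siponimod replicate 2 was well below the other 2 of its group (2.24 ± 1.41 CPM). The groups did not overlap and the log2 FC was 3.10 (SE 0.65). Within pairs of libraries with the same number the log2 difference was 2.95, 1.35 and 3.57. The gene was no longer past the thresholds without LPS/DMSO replicate 1, LPS/DMSO replicate 2, LPS/siponimod replicate 1 or LPS/siponimod replicate 3, its log2 FC being 2.67 to 3.53 over the 6 fits that left out 1 library.

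Sequence upstream of the gene start was taken from RefSeq for 8 of the 10 genes, Inhba, Acvr1b, Tgfb1, Tgfbr1, Tgfbr2, Smad3, Smad7 and Skil (GRCr8, another assembly than the one the reads were mapped to). The 250 bases before the start are shown for Inhba, which had the largest log2 FC of the 8, and for Skil, the 1 among them with the SMAD box. Capitals mark matches on either strand to CAGAC (the SMAD box), TGACG (the core of the cyclic AMP response element), TGANTCA (AP-1) and TATAAA (the TATA box), and matches of TGACG on opposite strands may overlap. Inhba lies on the minus strand (chr17:53804509-53804758 for the stretch shown) and Skil on the minus strand (chr2:114203573-114203822), both written 5′ to 3′ toward the start.
Inhba: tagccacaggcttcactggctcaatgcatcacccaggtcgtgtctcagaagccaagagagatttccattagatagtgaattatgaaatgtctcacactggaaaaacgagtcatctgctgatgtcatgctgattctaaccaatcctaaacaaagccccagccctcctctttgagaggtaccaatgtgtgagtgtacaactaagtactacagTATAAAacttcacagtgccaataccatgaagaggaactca
Skil: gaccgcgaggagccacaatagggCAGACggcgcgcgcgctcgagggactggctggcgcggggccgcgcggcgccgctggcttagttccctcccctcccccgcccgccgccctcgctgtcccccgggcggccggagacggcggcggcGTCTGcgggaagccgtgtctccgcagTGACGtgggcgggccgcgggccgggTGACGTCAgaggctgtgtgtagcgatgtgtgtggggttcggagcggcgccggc
The Inhba stretch held 1 TATAAA, 40 to 35 bases before the start, and no match to the other 3 motifs. In the Skil stretch there were 2 CAGAC and 3 TGACG matches. Among the 33469 upstream windows of the same length in the reference, 42.9% held CAGAC, 18.2% TGACG, 6.34% TGANTCA and 12.9% TATAAA. Of the 8 genes, CAGAC was found in 1, TGACG in 3 (Tgfb1, Smad3 and Skil), TATAAA in 1 and TGANTCA in 0. Such matches describe the letters of these windows and are not binding sites.

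Tgfb1, the TGF-beta form that microglia themselves produce, was not a DEG. Its CPM values were 233, 234 and 333 in LPS/DMSO replicates 1, 2 and 3 and 192, 251 and 220 in LPS/siponimod replicates 1, 2 and 3. The groups overlapped, and LPS/DMSO replicate 3 was the highest of the 6. The log2 FC was -0.27 (SE 0.20), and without LPS/DMSO replicate 3 it was -0.08.

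Of the 3 receptors 1 was past the thresholds. Acvr1b encodes ALK4, the type I receptor for activin, and had 59.7, 51.0 and 45.2 CPM with LPS/DMSO and 23.8, 35.1 and 19.5 CPM with LPS/siponimod. All LPS/siponimod libraries were below all LPS/DMSO libraries, and the fitted level fell by 0.99 on the log2 scale (SE 0.24). Acvr1b dropped out of the DEGs without LPS/DMSO replicate 1, LPS/DMSO replicate 2, LPS/siponimod replicate 1 or LPS/siponimod replicate 3, with log2 FCs between -1.27 and -0.81 over the 6 fits, and also when both libraries numbered 3 were left out (-0.91). Tgfbr1 encodes ALK5, the corresponding type I receptor for TGF-beta, and had 90.6, 82.6 and 63.7 CPM with LPS/DMSO and 125, 105 and 116 CPM with LPS/siponimod. Here every LPS/siponimod library was above every LPS/DMSO library. Neither the fold change of 1.46 (log2 FC 0.55, SE 0.16) nor the adjusted p met its threshold, and Tgfbr1 was not a DEG. Tgfbr2, the type II receptor that binds TGF-beta first, had 588, 544 and 566 CPM with LPS/DMSO and 466, 486 and 315 CPM with LPS/siponimod. The groups were separate, with LPS/siponimod replicate 3 far below the rest, and the log2 FC of -0.42 (SE 0.20) was not past the thresholds.

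**Figure D3:**
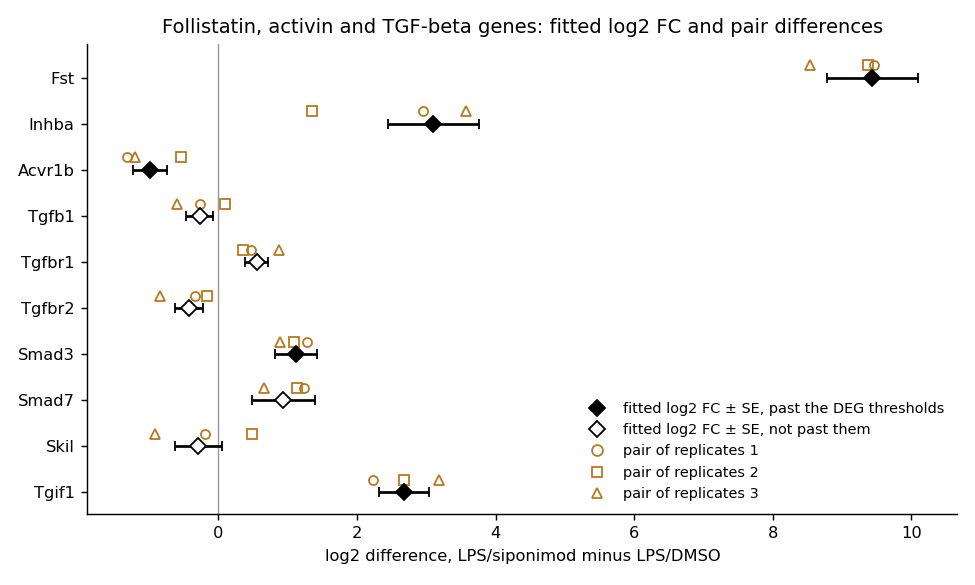
Log2 difference between LPS/siponimod and LPS/DMSO (x axis) for the 10 genes, with diamonds for the fitted log2 FC ± standard error (filled where past the DEG thresholds) and open circles, squares and triangles for the differences within same-numbered pairs 1, 2 and 3. Fst stands at 9.44, and Tgfb1 and Skil have pairs on both sides of 0.

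Inside the cell, Smad3, the SMAD that carries activin and TGF-beta signals to DNA, was higher with LPS/siponimod. Its CPM values were 30.4, 20.7 and 20.2 with LPS/DMSO and 73.7, 43.8 and 37.3 with LPS/siponimod. The groups did not overlap, and replicate 1 was the highest in each of them. The log2 FC was 1.12 (SE 0.30), with 1.28, 1.08 and 0.88 within pairs 1, 2 and 3. This call was the least stable of the 5, as Smad3 was not past the thresholds in any of the 6 fits that left out 1 library (log2 FC 0.77 to 1.35), nor with no filter on low counts (1.11).

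Among the brakes of the pathway, Tgif1 differed the most and Skil the least. Tgif1, a homeodomain corepressor that binds SMAD complexes, had 1133, 560 and 705 counts with LPS/DMSO and 6707, 4161 and 7051 with LPS/siponimod. Normalized, it rose from 21.4 ± 8.28 to 136 ± 39.9 CPM (mean ± SD of 3 libraries each), a log2 FC of 2.68 (SE 0.36). The lowest LPS/siponimod library was at 93.2 CPM and the highest LPS/DMSO library at 30.6 CPM. Tgif1 remained past the thresholds without any 1 of the 6 libraries, with log2 FCs of 2.47 to 3.05.

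Smad7, the inhibitory SMAD that blocks the activated type I receptor, was a low gene with 76, 66 and 171 counts with LPS/DMSO and 228, 170 and 300 with LPS/siponimod. LPS/DMSO replicate 3 (4.60 CPM) exceeded LPS/siponimod replicate 2 (3.81 CPM), so that the groups overlapped. The log2 FC was 0.94 (SE 0.46) and not past the thresholds. Within same-numbered pairs the level was higher in all 3, by 1.24, 1.13 and 0.66 on the log2 scale. With the replicate number as a block Smad7 was past the thresholds (log2 FC 1.02, SE 0.22), as it was without LPS/DMSO replicate 3 (1.51) and with both libraries numbered 3 left out (1.21).

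Skil encodes SnoN, a corepressor that sits on SMAD complexes until signalling removes it. It had 260, 227 and 507 CPM with LPS/DMSO and 226, 319 and 269 CPM with LPS/siponimod. LPS/DMSO replicate 3 stood above the other 5 libraries by more than their own range, and the groups overlapped. The log2 FC of -0.29 (SE 0.34) was not past the thresholds and turned to 0.16 without LPS/DMSO replicate 3. That library was also the highest of the LPS/DMSO libraries for Smad7 and Tgfb1. It had the highest sum of oligodendrocyte lineage markers of all libraries, and whether these values belong together was not tested.

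By their CPM over the 6 libraries, Tbl2, RGD1564963, Cd34 and Slc1a4 were among the 5 genes most like Fst, with Pearson correlations of log2 CPM between 0.997 and 0.998. For Inhba the 5 were AABR07028615.2, Kif3a, Dnajc10, Mcoln3 and Slc7a6os, between 0.992 and 0.997. Cd34, the surface marker of progenitors, had 0, 0 and 1 counts with LPS/DMSO and 181, 203 and 357 with LPS/siponimod and was thus, like Fst, nearly without reads with LPS/DMSO. Mcoln3, a lysosomal cation channel, had 37, 21 and 18 counts with LPS/DMSO and 711, 137 and 1109 with LPS/siponimod, with the low replicate 2 that Inhba also showed. These correlations mostly reflect the difference between the conditions. A value of at least 0.95 was reached with Fst by 698 of the other 11976 genes tested (5.83%) and with Inhba by 326 (2.72%).

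The rest of the pathway was read from 7 lists of 113 further genes, of which 111 were in the tables (Junb and Fcrls were not found by name) and 86 had enough counts to be tested. Of these 86, 14 were upregulated and 6 downregulated DEGs by edgeR's quasi-likelihood test (23.3% in all, against 25.3% of all genes tested), and 43 had a positive and 43 a negative log2 FC. With the replicate block 20 were upregulated and 11 downregulated, in a fit that called 17.7% of all genes higher and 16.4% lower, and with both libraries numbered 3 left out 15 and 8 (11.1% and 8.17% of all genes). Single libraries moved these numbers together with the shares of all genes called higher and lower. They were 11 and 0 without LPS/DMSO replicate 1 (8.75% and 5.13% of all genes), 4 and 0 without LPS/DMSO replicate 2 (3.72% and 1.44%) and 22 and 15 without LPS/DMSO replicate 3 (15.9% and 14.5%). Without LPS/siponimod replicate 1 they were 8 and 0 (4.70% and 1.52% of all genes), with 14 and 10 without replicate 2 of that group (11.8% and 11.6%) and 8 and 1 without its replicate 3 (6.26% and 2.24%). The counts of the single lists under these fits are to be read against the same shares.

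**Figure D4:**
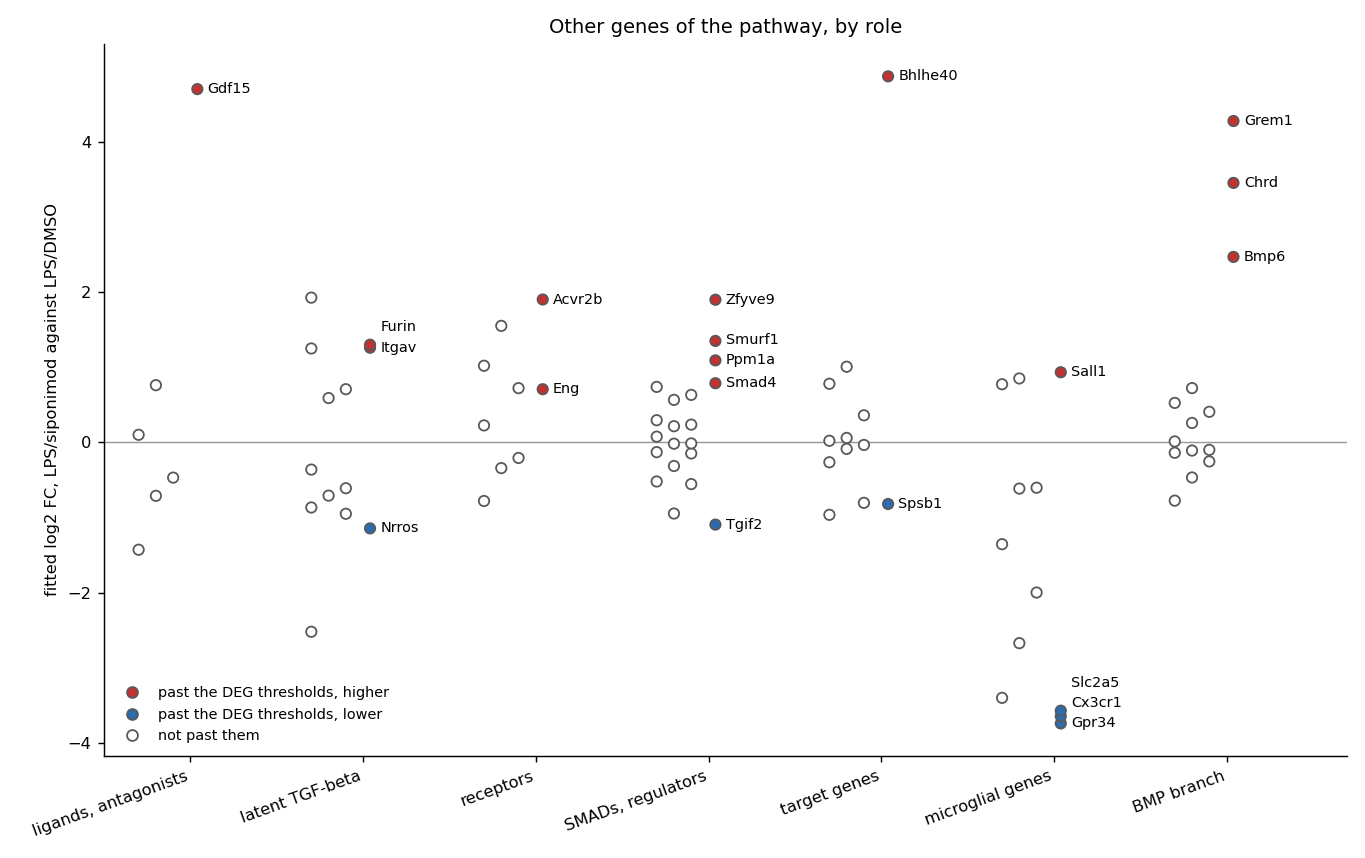
Fitted log2 FC of LPS/siponimod against LPS/DMSO (y axis) for the 86 tested genes of the 7 lists (x axis), with red points for upregulated DEGs, blue points for downregulated DEGs and open points for the other genes. Gdf15, Bhlhe40 and Grem1 lie above 4, and the DEGs Gpr34, Cx3cr1 and Slc2a5 below -3, as does P2ry12 (-3.40), which is not a DEG.

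Of 15 further ligands and soluble antagonists only 6 were tested. Gdf15, a distant member of the ligand family made by stressed cells, was the 1 DEG of this list (16.7% of those tested, against 13.6% of all genes upregulated), and its counts were 919, 285 and 536 with LPS/DMSO and 33564, 8400 and 12500 with LPS/siponimod. All LPS/siponimod libraries were far above all LPS/DMSO libraries, as the gene rose from 15.5 ± 8.75 to 405 ± 281 CPM (mean ± SD of 3 libraries; log2 FC 4.70, SE 0.71, adjusted p = 0.00971, edgeR). It remained a DEG without any 1 of the 6 libraries, and without LPS/DMSO replicate 3 the list had 2 DEGs. The other activin and inhibin chains were at or near 0, with 0 counts of Inha in all libraries, at most 1 count of Inhbc and of Inhbe and at most 4 of Inhbb. Fstl3, the follistatin-like activin antagonist, had 40, 19 and 7 counts with LPS/DMSO and 23, 16 and 17 with LPS/siponimod and did not pass the test (log2 FC -0.47, adjusted p = 0.606, edgeR).

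Latent TGF-beta is held on the cell surface or matrix until proteases or integrins free it. Of 13 tested genes of this step 2 were upregulated (15.4%, against 13.6% of all genes) and 1 was downregulated (7.69%, against 11.7%). The median log2 FC was -0.36, but its sign was not stable. It was -0.15 without LPS/DMSO replicate 1, 1.07 without LPS/DMSO replicate 3, 0.15 without LPS/siponimod replicate 1, 0.37 without LPS/siponimod replicate 2, -0.98 without LPS/siponimod replicate 3, 0.84 with both libraries numbered 3 left out and -0.03 with the replicate block, which gave 4 upregulated and 2 downregulated genes. These were 3 and 2 without LPS/DMSO replicate 3, 0 and 0 without LPS/DMSO replicate 2, and 2 and 2 without LPS/siponimod replicate 2. Furin, the protease that processes TGF-beta and activin precursors, rose from 147 ± 36.6 to 362 ± 21.5 CPM (mean ± SD of 3 libraries; log2 FC 1.30, SE 0.21, adjusted p = 0.0106, edgeR). Itgav, the alpha V chain of the integrins that free TGF-beta, rose from 113 ± 23.3 to 271 ± 49.6 CPM (log2 FC 1.26, adjusted p = 0.012, edgeR). Of the tested integrin beta chains of the list, Itgb5, Itgb8 and Itgb3 had log2 FCs of -2.52, -0.95 and 1.25. None of them passed the test (adjusted p = 0.055, 0.564 and 0.0953, edgeR), and they were named after their values were seen. Nrros, which anchors latent TGF-beta1 on microglia, had 162, 189 and 152 CPM with LPS/DMSO and 67.5, 101 and 58.1 CPM with LPS/siponimod. Its level thus fell by 1.15 on the log2 scale (SE 0.23, adjusted p = 0.0187, edgeR). Without LPS/DMSO replicate 2 the adjusted p was 0.0532 for Furin and 0.0616 for Itgav, and Nrros lost its call without LPS/DMSO replicate 1, LPS/DMSO replicate 2, LPS/siponimod replicate 1 or LPS/siponimod replicate 3, the adjusted p reaching 0.0913.

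Among 9 tested receptors and co-receptors 2 were upregulated DEGs (22.2%, against 13.6% of all genes) and 0 downregulated ones (11.7% of all genes), with a median log2 FC of 0.71. That median was 0.41 without LPS/DMSO replicate 1, 0.37 without LPS/DMSO replicate 2, 0.31 without LPS/siponimod replicate 1 and 0.44 without LPS/siponimod replicate 2, and the replicate block gave 4 upregulated genes. There were 3 upregulated and 1 downregulated without LPS/DMSO replicate 3, 1 upregulated without LPS/DMSO replicate 1 or LPS/siponimod replicate 2, and 0 in the other 3 fits that left out 1 library. Acvr2b, a type II receptor for activin, had 21, 15 and 12 counts with LPS/DMSO and 63, 68 and 79 with LPS/siponimod (log2 FC 1.90, SE 0.36, adjusted p = 0.0159, edgeR). Eng, the co-receptor endoglin, rose from 282 ± 16.0 to 461 ± 76.9 CPM (mean ± SD of 3 libraries; log2 FC 0.71, SE 0.17, adjusted p = 0.0277, edgeR). Both were separate between the groups, whereas Acvr2a, the other type II activin receptor, was separate as well but did not pass the test (log2 FC 0.72, adjusted p = 0.0868, edgeR). Acvr2b was not a DEG without LPS/DMSO replicate 2, LPS/siponimod replicate 1 or LPS/siponimod replicate 3 (adjusted p up to 0.0937), and Eng was one only in the fit without LPS/DMSO replicate 3 (adjusted p up to 0.092).

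Of 20 tested SMADs and SMAD regulators 4 were upregulated (20%, against 13.6% of all genes) and 1 was downregulated (5%, against 11.7%), with a median log2 FC of 0.145 (0.0749 without LPS/DMSO replicate 1 and 0.237 with the replicate block, which gave 5 upregulated and 3 downregulated genes). The numbers were 6 and 1 without LPS/DMSO replicate 3, 5 and 3 without LPS/siponimod replicate 2, and 0 and 0 without LPS/DMSO replicate 2. Smad4, the partner shared by all signalling SMADs, had 48.0, 43.8 and 47.9 CPM with LPS/DMSO and 84.4, 71.4 and 85.2 CPM with LPS/siponimod (log2 FC 0.79, SE 0.12, adjusted p = 0.0096, edgeR). Zfyve9, which encodes SARA, the anchor that presents SMAD2 and SMAD3 to the receptor, rose from 1.32 ± 0.167 to 4.94 ± 1.13 CPM (mean ± SD of 3 libraries; log2 FC 1.90, adjusted p = 0.00838, edgeR). Ppm1a, a phosphatase that removes the activating phosphates of SMAD2 and SMAD3, rose from 66.5 ± 5.82 to 142 ± 22.9 CPM (log2 FC 1.09, adjusted p = 0.00884, edgeR). Tgif2, the close relative of Tgif1, went the other way, from 6.18 ± 0.676 to 2.89 ± 0.603 CPM (log2 FC -1.10, adjusted p = 0.0211, edgeR). The remaining DEG, Smurf1, a ubiquitin ligase, had a log2 FC of 1.35 (adjusted p = 0.0207, edgeR) and was named after its value was seen. Smurf1 lost its call without LPS/DMSO replicate 1, LPS/DMSO replicate 2, LPS/siponimod replicate 1 or LPS/siponimod replicate 3 (adjusted p up to 0.0821). Smad2, the partner of Smad3, had a log2 FC of 0.08 and did not pass the test (adjusted p = 0.65, edgeR). Without LPS/DMSO replicate 2 the adjusted p was 0.0508 for Zfyve9, 0.0515 for Ppm1a and 0.0531 for Smad4, and Tgif2 lost its call without LPS/DMSO replicate 1, LPS/DMSO replicate 2, LPS/siponimod replicate 1 or LPS/siponimod replicate 3 (up to 0.0951).

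The next list held genes that TGF-beta or activin induce in many cell types. Of 12 tested, 1 was upregulated and 1 downregulated, 8.33% each against 13.6% and 11.7% of all genes (2 and 4 without LPS/DMSO replicate 3, 2 and 0 without LPS/siponimod replicate 1, and 1 and 0 without LPS/DMSO replicate 1, LPS/DMSO replicate 2 or LPS/siponimod replicate 3), 6 had a positive and 6 a negative log2 FC, and the median was -0.01. It was -0.27 without LPS/DMSO replicate 1, -0.16 without LPS/DMSO replicate 2, 0.59 without LPS/DMSO replicate 3, 0.17 without LPS/siponimod replicate 1, -0.38 without LPS/siponimod replicate 3, 0.08 with the replicate block (2 upregulated and 1 downregulated) and 0.29 with both libraries numbered 3 left out. Bhlhe40, a basic helix-loop-helix repressor that many other stimuli induce as well, had 238, 63 and 104 counts with LPS/DMSO and 6768, 3102 and 4233 with LPS/siponimod. The groups were far apart (log2 FC 4.87, SE 0.60, adjusted p = 0.00703, edgeR), and the call held without any 1 of the 6 libraries. Spsb1, an adaptor of a ubiquitin ligase, fell by 0.82 on the log2 scale (SE 0.24, adjusted p = 0.0497, edgeR), and lost its call without LPS/DMSO replicate 1, LPS/DMSO replicate 2, LPS/siponimod replicate 1 or LPS/siponimod replicate 3 (adjusted p up to 0.175).

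Of 12 tested genes whose expression in microglia is known to need TGF-beta 3 were downregulated (among all genes tested 11.7%) and 1 was upregulated (13.6%), and 9 had a negative log2 FC. Their median was -1.68, and it was -0.89 without LPS/DMSO replicate 1 and -1.07 without LPS/siponimod replicate 1. With the replicate block 5 were downregulated, and 16.4% of all genes. Gpr34, a lysophosphatidylserine receptor, had 767, 976 and 258 counts with LPS/DMSO and 34, 129 and 13 with LPS/siponimod (log2 FC -3.74, SE 0.92, adjusted p = 0.0297, edgeR). Cx3cr1, the fractalkine receptor, had 69, 202 and 35 counts with LPS/DMSO and 3, 21 and 4 with LPS/siponimod (log2 FC -3.65, SE 1.00, adjusted p = 0.0392, edgeR). Slc2a5, a fructose transporter, had 55, 88 and 14 counts with LPS/DMSO and 1, 12 and 2 with LPS/siponimod (log2 FC -3.57, SE 1.05, adjusted p = 0.0477, edgeR). As 2 of its LPS/siponimod libraries were under the floor of 3 counts, this fold change depends on the prior count. In all 3 genes the libraries numbered 2 were the highest of their group, and the groups did not overlap. Sall1, a transcription factor of microglial identity, went the other way, with 224, 367 and 257 counts with LPS/DMSO and 680, 477 and 723 with LPS/siponimod (log2 FC 0.93, SE 0.26, adjusted p = 0.0433, edgeR). The number of downregulated genes was 0 without LPS/DMSO replicate 1, LPS/DMSO replicate 2, LPS/siponimod replicate 1 or LPS/siponimod replicate 3, 4 without LPS/siponimod replicate 2 and 7 without LPS/DMSO replicate 3. In those fits the downregulated share of all genes was 5.13%, 1.44%, 1.52%, 2.24%, 11.6% and 14.5%, in the same order. Gpr34, Cx3cr1 and Slc2a5 each lost the call without LPS/DMSO replicate 1, LPS/DMSO replicate 2, LPS/siponimod replicate 1 or LPS/siponimod replicate 3, with adjusted p up to 0.122, 0.147 and 0.173, and Sall1 kept it only in the fit without LPS/siponimod replicate 2 (up to 0.138). Over the 6 fits that left out 1 library the log2 FC was -5.06 to -3.28 for Gpr34 and -5.01 to -2.71 for Cx3cr1. It was -5.20 to -3.01 for Slc2a5 and 0.76 to 1.16 for Sall1. With the replicate block Sall1 was not past the thresholds either (adjusted p = 0.0553, edgeR). The microglial marker sum given above, whose list shares no gene with this one, was lower as well. That sum comes from the same 6 libraries, and Ptprc (log2 FC -0.02) and Cd68 (0.002) of its list hardly changed. Whether the falls in both lists belong together was not tested.

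In the neighbouring BMP branch, which signals through other type I receptors and SMADs, 3 of 14 tested genes were upregulated (21.4%, against 13.6% of all genes) and 0 downregulated (11.7% of all genes), with a median log2 FC of 0.135. The upregulated genes numbered 6 without LPS/DMSO replicate 3, 2 without LPS/DMSO replicate 1 or 2, 1 without LPS/siponimod replicate 3 and 0 without LPS/siponimod replicate 1. The median was 0.0823 without LPS/DMSO replicate 1, 0.585 without LPS/DMSO replicate 3, 0.0662 without LPS/siponimod replicate 1, 0.018 without LPS/siponimod replicate 3, 0.399 with the replicate block and 0.456 with both libraries numbered 3 left out. Grem1, which encodes the BMP antagonist gremlin, had 20, 25 and 3 counts with LPS/DMSO and 502, 321 and 281 with LPS/siponimod (log2 FC 4.28, SE 0.69, adjusted p = 0.0109, edgeR). Chrd, which encodes chordin, also a BMP antagonist, had 6, 1 and 2 counts with LPS/DMSO and 33, 38 and 48 with LPS/siponimod (log2 FC 3.45, SE 0.66, adjusted p = 0.0163, edgeR). As 2 of its LPS/DMSO libraries were under the floor of 3 counts, this fold change depends on the prior count. The log2 FC of Chrd was 3.05 to 4.44 over the 6 fits that left out 1 library. Bmp6, a BMP ligand, rose from 2.37 ± 1.49 to 13.1 ± 1.45 CPM (mean ± SD of 3 libraries; log2 FC 2.47, SE 0.53, adjusted p = 0.0212, edgeR). All 3 were separate between the groups. Of the Id genes, the usual targets of BMP signals, Id1, Id2, Id3 and Id4 had log2 FCs of -0.11, 0.26, -0.25 and -0.47 and none passed the test (adjusted p from 0.367 to 0.918, edgeR). Id1, Id3 and Id4 were highest in LPS/DMSO replicate 3. Within pairs 1, 2 and 3 the log2 differences were 1.08, 1.02 and -1.12 for Id1 and 1.75, 1.76 and -1.35 for Id4. For Id3 they were 1.29, -0.003 and -1.52. The 4 Id genes were named after their values were seen. Without LPS/siponimod replicate 1 the adjusted p was 0.0537 for Grem1, 0.0771 for Chrd and 0.0794 for Bmp6. Chrd also lost its call without LPS/DMSO replicate 2 or LPS/siponimod replicate 3, and Bmp6 without LPS/DMSO replicate 1 or LPS/siponimod replicate 3.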

How the data were processed

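Total read counts per gene of 6 polyA-selected libraries (3 LPS/DMSO, 3 LPS/siponimod) were deposited by the authors without normalization. Single-end reads were demultiplexed with bcl2fastq (version 2.20.0.422), trimmed and mapped to the rat genome (mRatBN7.2) in CLC Genomics Workbench (version 22.0.2). Strand, intron and multi-mapping rules are not given in the sources used here, so that overlapping or near-identical genes are uncertain. An empty row (1) was left out of 1 table.

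Testing used edgeR (version 4.0.16, under R version 4.3.3) with TMM scaling, filterByExpr (minimum count 10, minimum total 15), a model of condition alone and glmQLFTest, with Benjamini-Hochberg adjustment over 11977 genes. CPM are per TMM-scaled library, and 1 CPM equals 37.1 to 46.5 reads. Pair differences use log2 CPM with a prior count of 2. Intervals and the floor of 3 counts cover counting error only. Replicates are called biological by the study, and p-values measure the spread between these 3 libraries per condition. For a single gene an exact permutation test of 3 against 3 cannot go below p = 0.1. The test was tried on simulated counts.

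The members and the gene lists were chosen with earlier results of these data known. Named genes are the members, up to 3 DEGs per list and direction by adjusted p, the 5 genes most like Fst and Inhba, and the markers with the highest mean CPM over the 6 libraries or at 0 in all. Some genes that the rule names are not reported here. Others are marked where they are named, or were chosen after their values were seen (Pdgfra, Olig1, Olig2, Pecam1, Cd68, P2ry12, Map2, Gfap, Snap25, Lum, Col1a1, Col1a2, Aif1, Itgam, Acvr2a, Smad2, Fstl3 and the activin and inhibin chains). The markers Ptprc, Tyrobp, Spi1, C1qa, C1qb, C1qc, Tek, Vwf, Col3a1 and Pdgfrb were also named after their values were seen.

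Same-numbered libraries deviated together from their group means (correlations over genes 0.42, 0.545 and 0.611, and -0.534 to 0.0856 for other pairs), so the numbers were read as pairing the libraries. The main fit of condition alone does not use this pairing, and its p-values are the ones given unless the block is named. A replicate block was run as an alternative and called 4074 DEGs, against 3036 in the main fit. The other alternatives were RLE scaling, DESeq2 (version 1.42.0), limma-voom (version 3.58.1), the likelihood ratio test, no filter beyond 1 count, a mean of at least 1 CPM, each library left out in turn and, chosen after seeing the data, both libraries numbered 3 left out.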

Additional observations from a re-analysis of the deposited data

How the results depend on the processing

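Leaving out 1 library moved the number of DEGs most, to 469 to 1941 upregulated and 182 to 1772 downregulated genes, against 1633 and 1403 with all 6 (both lowest without LPS/DMSO replicate 2). Over the same fits the upregulated members numbered 2 to 4 and the downregulated ones 0 to 1, and the other pathway genes 4 to 22 and 0 to 15. Log2 FCs were 2.67 to 3.53 for Inhba, -1.27 to -0.81 for Acvr1b, 0.77 to 1.35 for Smad3, 0.65 to 1.51 for Smad7 and -0.48 to 0.16 for Skil, the sign of Skil turning without LPS/DMSO replicate 3. With both libraries numbered 3 left out, Inhba (2.63), Acvr1b (-0.91, leaving 0 downregulated members) and Smad3 (1.21) were not past the thresholds, Smad7 was (1.21) and Skil was at 0.165. Inhba was not past them with limma-voom (2.76), nor Smad3 with no filter (1.11). With the replicate block Smad7 passed (1.02), and it changed no other call of a member. The 6 downregulated genes of the other pathway lists became 13 with DESeq2, 12 with the likelihood ratio test, 11 with the replicate block and 3 with no filter, while the downregulated share of all genes went from 11.7% to 16.1%, 14.5%, 16.4% and 6.53%. Fst and Tgif1 were past the thresholds in all 14 alternatives, and Tgfb1, Tgfbr1, Tgfbr2 and Skil in 0 of them. Scaling by RLE changed no call of a member. Genes such as Fst and Inhba rest on few reads with LPS/DMSO, so that their fold changes are known less well than their direction. The causes of these shifts were not tested.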
